A study of Homo sapiens with 16 samples.

Results

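Intronless protein-coding genes were followed in 2 human cancer lines, A549 from the lung and SUM159 from a triple-negative tumour of the breast. A gene was taken as intronless when it lay on an autosome and its Ensembl canonical transcript in GENCODE release 44 had 1 exon. Genes whose symbols start with H1-, H2A, H2B, H3, H4, HSPA1 or SRSF8 were left out by the rule, and a mean of at least 1 CPM, a count scaled to the size of its library, was required over all 16 libraries. The annotation held 1034 autosomal single-exon genes, of which 83 carried a barred symbol and 47 had no entry in the files. Of the 904 left, 431 had no count in any library and 279 had counts but lay under the limit. This gave 194 genes out of 58676 gene identifiers. The rule named no drug response, but the mean runs over treated libraries too, so a gene raised by a drug could meet the limit through them. Just inside the limit lay PABPC3 at 1.00 CPM and PCDHB16 at 1.02 CPM, and just outside lay HPDL at 0.988 CPM and CCDC96 at 0.987 CPM. They were compared with 11810 autosomal protein-coding genes with at least 2 exons that met the same level.

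Each line was kept untreated or received 2 µM palbociclib, 3 µM indisulam or both drugs for 16 h, and each of the 8 groups held 2 libraries. The labels name no engineered allele in either line. The duplicates were technical, so the spread between them leaves out the variation between independent cultures, and every test below concerns these samples. Each drug was used at 1 dose and 1 time, in 1 line per tissue. Palbociclib blocks CDK4 and CDK6, the kinases that release E2F factors at entry to S phase. Indisulam binds the DCAF15 ubiquitin ligase and causes destruction of RBM39, an RNA-binding protein that takes part in splicing.

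Most human genes are transcribed with introns, which the spliceosome removes before the mRNA leaves the nucleus. An intronless gene yields an mRNA that needs capping and polyadenylation but no splicing. Many such genes arose when a spliced mRNA was copied back into the genome. Well-known intronless genes include those of the AP-1 subunit JUN, the protocadherin beta family and many G protein-coupled receptors. The comparison asks how such mRNAs moved under the drugs beside those of genes whose transcripts are spliced.

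The absence of an intron can be seen in genes that have a close multi-exon relative. Here 3 such pairs are shown, from GENCODE release 44 on GRCh38, as 60 coding bases that span an exon-exon junction of the multi-exon gene. Capitals in the multi-exon gene mark the last base of one exon and the first base of the next. Capitals in the intronless gene mark bases that differ from the multi-exon gene.
CSTF2: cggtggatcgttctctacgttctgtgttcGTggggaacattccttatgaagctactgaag
CSTF2T: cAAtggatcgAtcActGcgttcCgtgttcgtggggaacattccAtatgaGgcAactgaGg
HNRNPA1: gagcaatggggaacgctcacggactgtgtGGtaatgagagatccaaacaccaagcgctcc
HNRNPA1L2: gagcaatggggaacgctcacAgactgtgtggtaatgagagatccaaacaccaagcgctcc
EIF5A: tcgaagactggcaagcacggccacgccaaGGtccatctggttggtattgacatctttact
EIF5AL1: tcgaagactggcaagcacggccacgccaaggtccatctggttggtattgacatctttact

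In CSTF2 (chrX:100820445-100821556, plus strand) these bases came from exons 1 and 2, which an intron of 1052 bases separates in the genome. In CSTF2T (chr10:51699462-51699521, minus strand) the matching 60 bases were contiguous and 10 of them differed. The HNRNPA1 stretch (chr12:54281473-54281824, plus strand) joined exons 2 and 3 across an intron of 292 bases, and that of HNRNPA1L2 (chr13:52642595-52642654, plus strand) was contiguous with 1 base changed. The EIF5A stretch (chr17:7309771-7311047, plus strand) joined exons 2 and 3 across 1217 intronic bases, and that of EIF5AL1 (chr10:79512785-79512844, plus strand) was contiguous and identical. Over the aligned coding sequences, identity was 80.7% for CSTF2T, 98.4% for HNRNPA1L2 and 98.9% for EIF5AL1. Reads from the second and the third pair are hard to assign to 1 gene or its relative, so the counts of HNRNPA1L2 and EIF5AL1 are uncertain.

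Each library held 18306636 to 34075588 gene counts, so that 3 counts equal 0.0880 to 0.164 CPM. In all 8 groups the duplicates were further apart than counting noise, as chi-square divided by its degrees of freedom was 1.65 to 10.0. Of the line markers, KRT8 lay at 4809 CPM or more in A549 and VIM at 2755 CPM or more in SUM159. Not all listed markers went this way. KRT7, listed for A549, lay at 1171 to 1575 CPM there and at 1547 to 3196 CPM in SUM159. CDKN2A, listed as absent from A549, lay at 1.35 to 2.48 CPM there and at or under 0.0482 CPM in SUM159. CD3E and HBB stayed at or under 0.0482 and 0.141 CPM in every library. PTPRC and PECAM1, listed as markers of blood and endothelial cells, reached 4.54 and 38.9 CPM in SUM159. The RBM39 transcript, which reports the mRNA and not the protein that indisulam removes, rose by 1.06 in A549 and 1.09 in SUM159 with indisulam on the log2 scale (edgeR, adjusted p = 1.51e-10 and 3.66e-12). Reads that fell in no annotated feature made up 4.02% and 4.57% of the untreated A549 libraries and 5.70% and 5.97% of those with indisulam. In SUM159 the shares were 3.99% and 3.89% without treatment and 5.70% and 6.08% with indisulam. Their part in the results below was not tested.

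The intronless genes were mostly of low to middling level. Their median over the 16 libraries was 10.95 CPM against 31.5 CPM in the multi-exon genes, and 36.1% of them lay under 5 CPM against 14.4%. Their canonical transcripts were shorter, with a median of 2768 against 3494 bases, and richer in G and C, with a median of 52.3% against 47.9%. Per kilobase of transcript the highest level was that of PCBP1, a poly(C)-binding protein, at 178 CPM per kb, followed by the splicing factor 3B subunit gene SF3B5 at 96.9 and EID1, an inhibitor of differentiation, at 92.6. Annotated genes on the same strand overlapped 37 of the 194, and 14 lay inside an intron of such a gene, among them EBLN2 in PPP4R2 and CHMP1B in GNAL. Genes on the opposite strand overlapped 83. Some other transcript of more than 1 exon was annotated for 51, TAF7, LPAR6, CREBZF and JUN included. The filter on low counts left 187 of the 194 genes in the A549 fit and 177 in the SUM159 fit, and 170 were tested in both.

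With indisulam the intronless genes moved upward in A549. Of the 187 tested, 61 were called higher (32.6%, against 23.3% of all 15744 genes tested) and 11 were called lower (5.88%, against 25.9%), at an edgeR adjusted p under 0.05. Their median log2 change was 0.14, while that of all genes tested was 0.01 and that of the multi-exon genes was -0.00. In SUM159, 57 of 177 were called higher (32.2%, against 21.9% of 16080 genes) and 29 lower (16.4%, against 24.9%), with a median of 0.16 beside 0.01 over all genes. Of the A549 genes, 11 had under 1 CPM without treatment, and 5 of those were among the calls of higher level. In SUM159 there were 20 such genes and 7 such calls. Genes of this kind can have met the limit through the treated libraries. Among genes of at least 1 CPM in the untreated libraries, 56 of 176 were called higher and 11 lower in A549, and 50 of 157 and 29 in SUM159. Scaling by total counts in place of the trimmed mean of M-values gave 67 higher and 16 lower in SUM159. DESeq2's Wald test called 20.3% higher and 10.7% lower there. Without 1 of the SUM159 libraries compared, between 9.55% and 11.2% were called lower.

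With indisulam the share called lower rose with the number of exons. In A549 the share of genes called lower was 5.88% at 1 exon, 16.8% at 2, 20.6% at 3 to 5, 26.5% at 6 to 10, 34.8% at 11 to 20 and 42.0% over 20 exons. In SUM159 the same classes gave 16.4%, 18.3%, 23.5%, 29.8%, 35.4% and 38.8%. The share rose at each step in both lines. A rise was not particular to indisulam, since in A549 the share went from 13.9% at 1 exon to 30.8% over 20 exons with palbociclib and from 13.4% to 46.8% with the combination, and in SUM159 from 29.9% to 44.4% with the combination. The slopes were not tested against each other. The median log2 change went from 0.14 at 1 exon to -0.12 over 20 exons in A549 and from 0.16 to -0.08 in SUM159. Level and length moved with the exon number, since the median mean level was 11.9 CPM at 1 exon and 49.9 CPM over 20 exons in A549, and the median transcript length 2752 and 6024 bases. Their part in the trend was not tested across the classes.

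**Figure D1:**
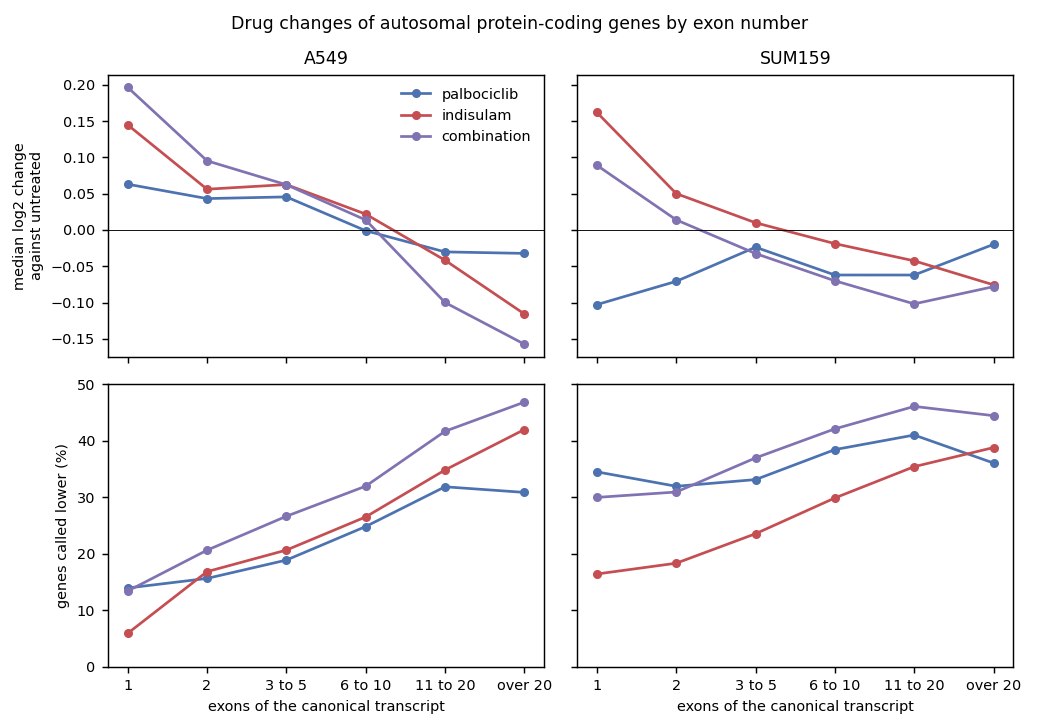
Median log2 change against untreated cells (upper panels) and percentage of genes called lower by edgeR at an adjusted p under 0.05 (lower panels), for autosomal protein-coding genes grouped by the exons of the canonical transcript. With indisulam (red) the share called lower climbed from 5.88% at 1 exon to 42.0% over 20 exons in A549. In SUM159 it climbed from 16.4% to 38.8%. With palbociclib (blue) it went from 13.9% to 30.8% in A549. In SUM159 it was then 34.5% at 1 exon, 31.9% at 2, 41.0% at 11 to 20 and 36.0% over 20.

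Level was matched by setting each intronless gene against the median of the multi-exon genes in the same band of mean CPM (1 to 5, 5 to 20, 20 to 100, and 100 and over). By this measure the intronless genes stood 0.15 log2 units above with indisulam in A549 and 0.11 above in SUM159. Library by library, the A549 values were 0.16 and 0.16 with indisulam and 0.02 and -0.02 without treatment. The SUM159 values were 0.13 and 0.09 with indisulam and 0.01 and -0.01 without. In both lines each treated library lay above each untreated one. The untreated values lie evenly about 0 by construction, since every library was set against the mean of the untreated libraries. With bands of transcript length in place of level the difference was 0.13 in A549 and 0.19 in SUM159, and with bands of GC content it was 0.15 and 0.17. The offset was seen at low and high level in A549, where 2 of 64 intronless genes at 1 to 5 CPM and 3 of 55 at 20 to 100 CPM were called lower, against 22.7% and 30.6% of the multi-exon genes. In SUM159 the medians were 0.43 against 0.16 at 1 to 5 CPM, 0.14 against 0.04 at 5 to 20 CPM, 0.00 against -0.03 at 20 to 100 CPM and -0.02 against -0.10 at 100 CPM and over, the last with 7 intronless genes. The lowest band holds genes that could meet the limit through the treated libraries, and the bands were not tested against each other.

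**Figure D2:**
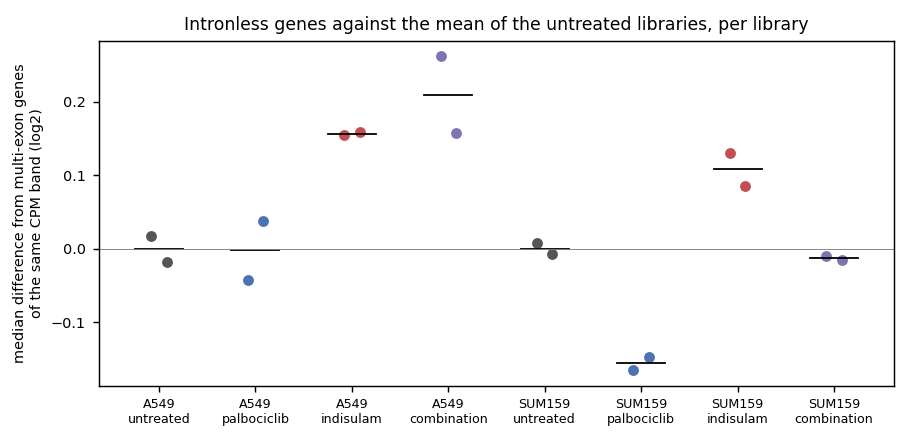
Difference between intronless genes and multi-exon genes of the same CPM band in each library, as the median over genes of the log2 change from the mean of the untreated libraries of the line (points, 2 libraries per group; bars, group means). Libraries with indisulam lay at 0.16 and 0.16 in A549 and at 0.13 and 0.09 in SUM159. Those with palbociclib in SUM159 lay at -0.17 and -0.15.

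The shares were also taken for genes that no other gene overlapped. Among the 152 A549 genes without a same-strand neighbour on top of them, 31.6% were called higher and 4.61% lower, and among the 143 in SUM159 the shares were 32.2% and 14.7%. Without overlap on either strand, they were 34.8% and 4.49% of 89 genes in A549 and 30.1% and 16.9% of 83 in SUM159. Genes for which a spliced transcript was also annotated were called higher more often by count. With indisulam in A549 these were 23 of 49 (46.9%), and 38 of 138 (27.5%) without such a transcript. The corresponding SUM159 counts were 23 of 47 (48.9%) and 34 of 130 (26.2%). Of all genes tested, 23.3% were called higher in A549 and 21.9% in SUM159. Genes without a spliced transcript were thus called higher at a share near that of all genes. Their shares called lower were 6.52% in A549 and 18.5% in SUM159, beside 25.9% and 24.9% of all genes. The files hold counts per gene, so the isoform that changed cannot be read from them.

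Among genes tested in both lines, 28 of 170 intronless genes (16.5%) were called higher with indisulam in both, beside 13.5% of all 14122 genes tested in both. Called lower in both were 6 (3.53%), beside 17.5%. Called in opposite directions were 4 (2.35%, beside 1.82% of all genes), namely JUN, CCDC71L, PCBP1 and RANBP6, each higher in A549 and lower in SUM159. The last 3 were named after their values were seen. Across the 170 genes, Pearson's r between the A549 and SUM159 changes was 0.70 and Spearman's rho 0.56. Over all 14122 genes tested in both lines the values were 0.65 and 0.65. These describe genes that share libraries and are not independent replicates.

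**Figure D3:**
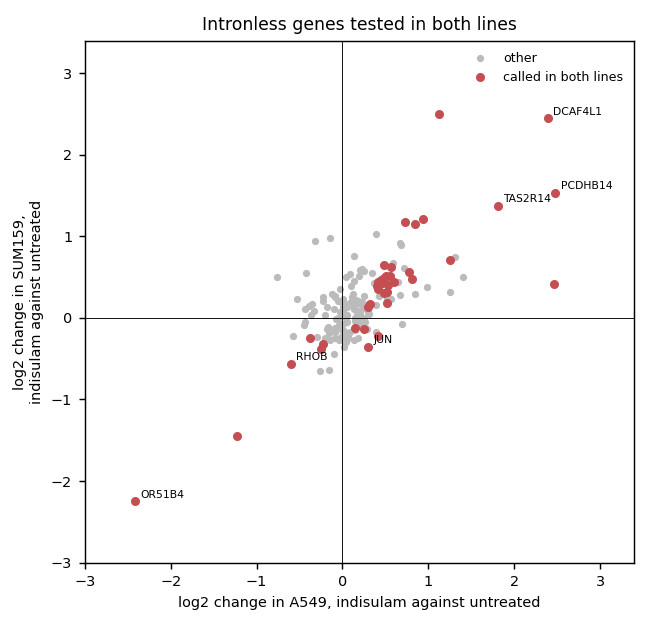
log2 change with indisulam in A549 (x axis) and in SUM159 (y axis) for the 170 intronless genes tested in both lines, with genes called in both lines in red. Pearson's r was 0.70 and Spearman's rho 0.56, beside 0.65 and 0.65 over all genes tested in both lines. In both lines 28 genes were called higher and 6 lower, with OR51B4 at the lower left and DCAF4L1 at the upper right.

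The genes with the largest shared increase at 5 CPM or more were TAF7, CREBZF, WDR5B, EPM2AIP1 and C11orf71. TAF7 encodes a subunit of the general transcription factor TFIID. It stood at 113 and 114 CPM in untreated A549 libraries and at 163 and 169 CPM with indisulam. In SUM159 it stood at 81.2 and 78.7 CPM and rose to 116 and 113 CPM. The log2 changes were 0.55 (SE 0.04) and 0.51 (SE 0.05), with edgeR adjusted p = 1.89e-07 and 2.87e-07, and neither line had overlapping groups. EPM2AIP1, a partner of the glycogen phosphatase laforin, went from 31.6 and 33.7 CPM to 56.2 and 58.1 CPM in A549. In SUM159 it went from 39.7 and 38.2 CPM to 54.8 and 54.0 CPM. Its change of 0.81 in A549 was the largest of the named increases there (adjusted p = 2.11e-07 by edgeR), and it was 0.48 in SUM159. CREBZF, a basic leucine zipper protein, reached 136 and 134 CPM in A549 from 89.1 and 100 CPM. In SUM159 it reached 99.9 and 101 CPM from 73.5 and 67.9 CPM. The CREBZF changes were 0.51 in each line. WDR5B, a relative of the histone methyltransferase subunit WDR5, rose by 0.49 in both, and C11orf71, which overlaps a same-strand gene, rose by 0.48 and 0.64. DESeq2's Wald test did not call C11orf71 in A549 (adjusted p = 0.058).

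Only 4 genes at that level were called lower in both lines, namely RHOB, RBM15B, MOCS3 and MGAT2. RHOB, a short-lived GTPase of endosomes and actin, lay at 54.7 and 53.4 CPM in untreated A549 libraries and at 36.7 and 34.6 CPM with indisulam. In SUM159, where its level was higher, it went from 191 and 188 CPM to 132 and 126 CPM. Its log2 changes were -0.60 (SE 0.09, edgeR adjusted p = 9.51e-05) and -0.56 (SE 0.04, 7.76e-09). RBM15B, an RNA-binding protein of the m6A methyltransferase complex, fell by 0.25 and 0.38 on the log2 scale. MOCS3, which acts in molybdenum cofactor synthesis and tRNA modification, fell by 0.38 and 0.25, and MGAT2, an enzyme of complex N-glycan synthesis, fell by 0.23 and 0.32. DESeq2 called MOCS3 in neither line (adjusted p = 0.0755 and 0.0926). Larger changes called in both lines were seen under 5 CPM, among them those of DCAF4L1, PCDHB14, TAS2R14, EBLN2 and OR51B4, which were chosen after their values were seen. DCAF4L1 rose by 2.39 and 2.45, and the odorant receptor gene OR51B4 fell by 2.42 and 2.25 on the log2 scale.

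Other genes led the increases in 1 line. In A549, TSPYL5, a relative of nucleosome assembly proteins, went from 8.11 and 8.28 CPM to 14.17 and 14.03 CPM with indisulam, and it had no count in any SUM159 library. FOXE1, a forkhead factor of thyroid development, rose by 0.78 in A549 and did not pass the filter in SUM159. In SUM159, LPAR6, a lysophosphatidic acid receptor gene that overlaps RB1 on the opposite strand, went from 3.62 and 2.49 CPM to 6.78 and 5.78 CPM. It was followed there by FAM43A, with a log2 change of 0.89, and FIBIN, with 0.81. The named decreases were FUT4 (-0.57), a fucosyltransferase, and EPOP (-0.44), a partner of Polycomb complex 2, in A549, and OR2W3 (-0.46) and SFN (-0.44) in SUM159. SFN encodes 14-3-3 sigma, an epithelial regulator of the cell cycle.

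The pairs of relatives were then set side by side. CSTF2T encodes a form of the cleavage stimulation factor subunit that acts in polyadenylation, and CSTF2 encodes the same subunit from 14 exons. CSTF2T stood at 51.9 and 51.1 CPM in untreated A549 libraries and at 59.0 and 59.3 CPM with indisulam, while CSTF2 went from 64.9 and 62.8 CPM to 39.2 and 38.1 CPM. The log2 changes were 0.20 (SE 0.05, edgeR adjusted p = 0.00738) and -0.72 (SE 0.05, 1.02e-07), and the first was not called by DESeq2 (adjusted p = 0.0551). In SUM159 the intronless gene stood at 58.98 and 60.01 CPM without and 58.03 and 60.43 CPM with indisulam, which was -0.01 on the log2 scale (adjusted p = 0.936 by edgeR), while CSTF2 fell by 0.31 (5.87e-05). CHMP1B, a subunit of the ESCRT-III membrane scission machinery, rose by 0.46 in A549 and 0.43 in SUM159 (edgeR adjusted p = 5.79e-06 and 1.38e-05). CHMP1B lies in an intron of GNAL on the same strand, so its counts are uncertain, and the part of GNAL reads was not tested. Its relative CHMP1A, with 7 exons, changed by 0.00 and -0.14, of which the second passed the test (adjusted p = 0.0186 by edgeR). The reverse was seen for the Rag GTPases that signal amino acids to mTORC1. RRAGA, without introns, changed by 0.22 in A549 and 0.12 in SUM159, the second not passing the test, whereas RRAGB, with 10 exons, rose by 1.92 and 1.72. HNRNPA1L2, EIF5AL1 and PABPC3 passed the test in none of the 6 drug comparisons. ACTBL2, a beta-actin relative, did not pass the filter in A549. In SUM159 it stood at 0.531 and 0.335 CPM untreated, 1.46 and 1.44 CPM with palbociclib, 2.89 and 1.95 CPM with indisulam and 4.43 and 4.98 CPM with the combination. Its log2 changes were 1.74, 2.46 and 3.42, while ACTB, with 6 exons, fell by 0.27, 0.09 and 0.34. ACTBL2 met the 1 CPM limit through the treated SUM159 libraries, so its rise is a description and no test of it is read.

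**Figure D4:**
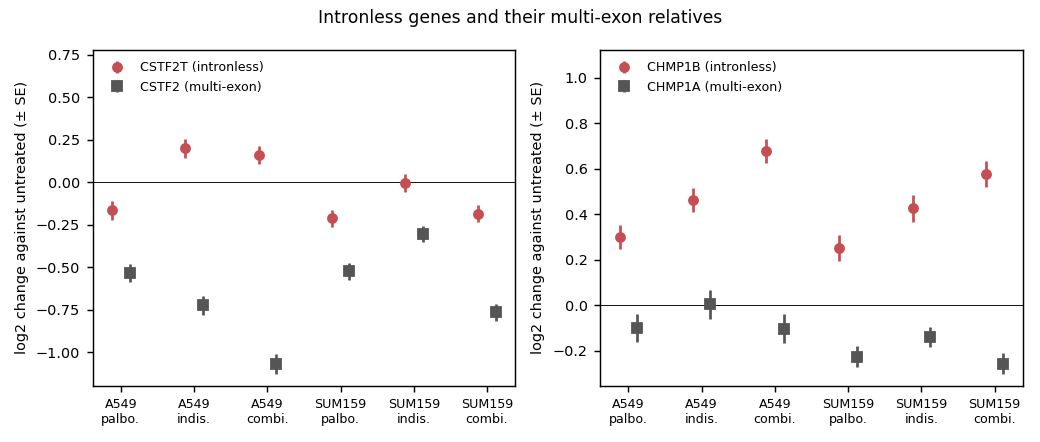
log2 change against untreated cells with its standard error for CSTF2T and CSTF2 (left) and CHMP1B and CHMP1A (right) in the 6 drug comparisons. CSTF2T lay above CSTF2 in each comparison, at 0.20 beside -0.72 with indisulam in A549, and CHMP1B lay above CHMP1A in each, at 0.46 beside 0.00.

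With palbociclib the share of intronless genes called higher was near that of all genes in A549, and in SUM159 more were called lower than higher. In A549, 39 of 187 were called higher (20.9%, against 22.0% of all genes tested) and 26 lower (13.9%, against 21.1%), with a median log2 change of 0.06 beside 0.03 over all genes. The difference from multi-exon genes of the same level was 0.01. In SUM159, 35 of 177 were called higher (19.8%, against 25.5%) and 61 lower (34.5%, against 29.0%), with a median of -0.10 beside 0.02. Of the multi-exon genes in SUM159, 26.1% were called higher and 37.4% lower, with a median of -0.05. Over the 177 genes the share called lower was thus above that of all genes but not above that of multi-exon genes. Of the 35 called higher, 8 had under 1 CPM without treatment and can have met the limit through the treated libraries. Among SUM159 genes of at least 1 CPM untreated, 27 of 157 (17.2%) were called higher and 60 (38.2%) lower. The multi-exon genes were not restricted in that way. In this line the difference at equal level was -0.17, with -0.17 and -0.15 in the treated libraries. Scaling by total counts gave 26.2% higher in A549, and 50 higher and 45 lower in SUM159, where the larger count thus changed direction, and moved the median of all genes by 0.10. Length bands gave -0.07 and GC bands -0.06 in SUM159, so the difference was smaller when length or GC content was matched than when level was. DESeq2's Wald test called 12.3% higher and 9.09% lower in A549. Without the second palbociclib library, 12.8% of the A549 genes were called higher, and without the second untreated library 10.1% of those in SUM159.

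HASPIN and RNF26 were called lower with palbociclib in both lines. HASPIN, the kinase that phosphorylates histone H3 in mitosis, lay at 24.6 and 22.4 CPM in untreated A549 libraries and at 9.85 and 9.37 CPM with palbociclib. In SUM159 it went from 30.5 and 30.7 CPM to 14.4 and 13.2 CPM. The log2 changes were -1.30 (SE 0.09) and -1.15 (SE 0.07), with edgeR adjusted p = 2.63e-08 and 3.06e-10. RNF26, a ubiquitin ligase of the endoplasmic reticulum, went from 74.5 and 69.7 CPM to 31.3 and 33.1 CPM in A549 and from 74.5 and 72.5 CPM to 43.2 and 42.2 CPM in SUM159. It fell by 1.16 and 0.78 on the log2 scale. With indisulam alone RNF26 changed by -0.05 and 0.00, and neither change passed the test. TSPYL1, also of the nucleosome assembly family, rose from 64.5 and 61.3 CPM to 96.9 and 98.3 CPM in A549, and from 92.3 and 91.1 CPM to 142 and 131 CPM in SUM159. Its changes were 0.63 and 0.57, and those with indisulam, 0.05 and -0.05, did not pass the test.

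Other named changes were seen in 1 line or were larger there. In A549 the small GTPase gene ARL14 rose by 0.95, TCIM, a regulator of Wnt signalling, rose by 0.80 and CCDC184 rose by 0.75, while RPP25, a subunit of RNase P, fell by 0.68. In SUM159 LPAR6 rose by 1.12 and FIBIN by 0.95. The Wnt receptor gene FZD1 fell there by 0.96 on the log2 scale, and the ribosome biogenesis factor RRS1 fell by 0.89. RRS1 lay at 55.6 and 53.9 CPM without and 28.91 and 30.03 CPM with palbociclib. SOX4, a transcription factor of progenitor cells, rose in both lines, by 0.37 and 0.33 (edgeR adjusted p = 0.000405 and 0.00062).

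The combination brought the largest number of calls. In A549, 79 of 187 genes were called higher (42.2%, against 27.4% of all genes tested) and 25 lower (13.4%, against 30.4%), and the median was 0.20 beside 0.00. In SUM159, 68 of 177 were called higher (38.4%, against 32.2%) and 53 lower (29.9%, against 33.1%), and the median was 0.09 beside 0.01. Of the calls of higher level, 7 in A549 and 12 in SUM159 were of genes under 1 CPM without treatment. Such genes can have met the limit through the treated libraries. Among genes of at least 1 CPM untreated, 72 of 176 (40.9%) were called higher and 25 lower in A549. In SUM159 these counts were 56 of 157 (35.7%) and 53 (33.8%). Against multi-exon genes of the same level the difference was 0.20 in A549, with 0.26 and 0.16 in the 2 treated libraries, and 0.00 in SUM159, with -0.01 and -0.02. With length bands the SUM159 value was 0.15 and with GC bands 0.10. Scaling by total counts gave 87 higher and 36 lower in SUM159 and moved the median of all genes by 0.15.

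HASPIN showed the deepest fall among genes of at least 5 CPM in the line, to 6.12 and 5.34 CPM in A549 and 10.7 and 10.9 CPM in SUM159. Its changes were -2.04 (SE 0.10) and -1.51 (SE 0.07), with edgeR adjusted p = 3.26e-10 and 8.09e-12. TLNRD1, a talin-related actin bundling protein, fell by 0.99 and 0.97. SFN fell from 124 and 123 CPM to 59.01 and 59.95 CPM in SUM159. Among genes of at least 5 CPM in the line, increases were led in A549 by ARL14 (1.36), TSPYL5 (1.26) and KLHDC7A (1.20), and in SUM159 by LPAR6 (1.47), FIBIN (1.46) and C11orf71 (1.27). TAF7 reached 177 and 180 CPM in A549, above either drug alone, and 116 and 122 CPM in SUM159.

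**Figure D5:**
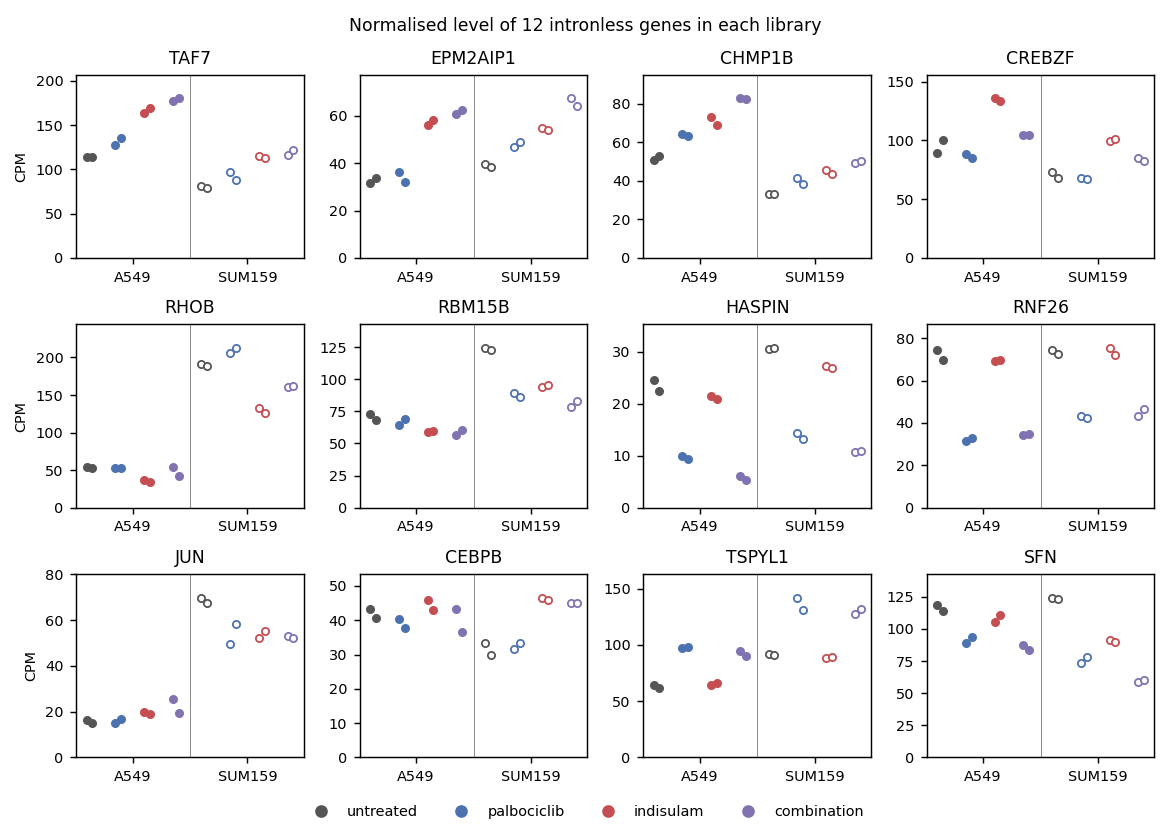
Normalised level (CPM) of 12 intronless genes in each library, with filled points for A549 and open points for SUM159, and colours for the treatment. The 4 genes of the top row rose with indisulam in both lines, RHOB and RBM15B fell, and HASPIN and RNF26 were low in the libraries given palbociclib, alone or combined.

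A departure of the combined effect from the sum of the single effects was called for few of these genes. It passed the edgeR test in 2 of 187 genes in A549 (3.53% of all genes tested did so) and in 6 of 177 in SUM159 (4.38%). In A549 these were HASPIN, at -0.59, and HPS6, a subunit of a lysosomal biogenesis complex, at -0.45. In SUM159 they were C6orf141 at -0.68 and, with a weaker fall or a larger rise than the sum, CENPB (0.23), EXOSC6 (0.32), RBM15B (0.26), RRS1 (0.29) and TSPYL4 (0.37). These names were taken because the counts are small, after their values were seen. Leaving out 1 library at a time gave 0% to 4.28% in A549, the highest without the first combination library, and 0% to 7.30% in SUM159, the highest without the second palbociclib library. A departure that does not pass the test with 2 libraries a group is not shown to be 0.

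By role, the intronless genes did not move as one. The 9 genes grouped as AP-1, C/EBP and immediate-early factors include NRARP, which is a Notch feedback gene and no immediate-early factor. In A549, 1 of them was called higher and 0 lower with indisulam, beside 23.3% and 25.9% of all genes, and 0 higher and 3 lower with palbociclib, beside 22.0% and 21.1%. In SUM159 the counts were 2 and 2 of 8 tested with indisulam, beside 21.9% and 24.9%, and 0 and 5 with palbociclib, beside 25.5% and 29.0%. NRARP was among those 5, at -1.61 from under 1 CPM. JUN, an AP-1 subunit, lay at 16.4 and 15.1 CPM in untreated A549 libraries and at 20.1 and 18.8 CPM with indisulam, but at 69.6 and 67.6 CPM and then 52.1 and 55.1 CPM in SUM159. The log2 changes were 0.30 (edgeR adjusted p = 0.0433, DESeq2 0.097) and -0.36 (edgeR 0.000213). CEBPB, a leucine zipper factor of inflammatory genes, was at 33.47 and 29.98 CPM in SUM159 and reached 46.5 and 45.9 CPM with indisulam (0.54, adjusted p = 1.47e-06 by edgeR), while its A549 change of 0.09 did not pass. CEBPD rose by 0.76 in SUM159. JUNB passed the test only with the combination in SUM159, at 0.35, and JUND was lower with palbociclib in both lines, at -0.34 and -0.32. IER5 fell with palbociclib by 0.21 in A549, a call that scaling by total counts and DESeq2 both lost, and by 0.31 in SUM159. For comparison, 22 multi-exon immediate-early genes gave 8 higher and 5 lower with indisulam in A549, and 9 and 6 in SUM159.

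Of the 19 genes of RNA processing, ribosome and translation, 10 were called lower and 2 higher with palbociclib in SUM159, where 29.0% of all genes were called lower and 25.5% higher. Their median log2 change there was -0.29, beside 0.02 over all genes. With indisulam in SUM159, 6 fell and 3 rose, beside 24.9% and 21.9% of all genes. In A549 the counts were 5 lower and 2 higher with palbociclib (21.1% and 22.0% of all genes), and 1 lower and 6 higher with indisulam (25.9% and 23.3%). PURB, a single-strand binding protein, fell by 0.37 with palbociclib in SUM159, and PURA fell by 0.23. HNRNPA0, a mRNA-binding protein at a mean of 145 CPM, fell by 0.65 there. KTI12, which acts in tRNA modification and overlaps TXNDC12 on the same strand, lay at 6.08 and 6.71 CPM without and 5.36 and 4.66 CPM with palbociclib in SUM159 (-0.36, adjusted p = 0.0223 by edgeR and 0.145 by DESeq2).

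The 12 genes of adhesion, junction and leucine-rich repeat proteins had no call of lower level with indisulam in either line. In A549, 4 of 11 tested were called higher, and in SUM159 6 of 11, beside 23.3% and 21.9% of all genes, with medians of 0.45 and 0.47. The all-gene shares called lower were 25.9% and 24.9%, and these shares apply to the indisulam counts that follow. Of the 12, 5 were protocadherin beta genes, surface proteins of neurons encoded in tandem on chromosome 5. PCDHB14, PCDHB2, PCDHB5, PCDHB6 and PCDHB16 were each called higher with indisulam in SUM159, by 0.71 to 1.54 log2 units, all from a mean of 3.0 CPM or less. Their sequences are alike and counts can be split between them. PCDHB16, at a mean of 1.02 CPM, did not pass the filter in A549 and could meet the 1 CPM limit through the treated SUM159 libraries. Its rise is therefore a description, and it counts among the 6 called higher there. THBD, the thrombomodulin gene, rose by 0.45 and 0.47. The 15 G protein-coupled receptor genes gave 4 higher and 2 lower of 14 tested in A549 and 5 higher and 3 lower of 13 in SUM159 with indisulam, of which the 4 and the last 3 are near the all-gene shares. The Wnt receptor gene FZD2 rose by 0.41 and 0.44. The 8 kelch, BTB and ubiquitin genes gave 4 and 3 higher and 0 lower, with KBTBD7, a cullin 3 adaptor, at 0.40 and 0.39. The 10 zinc finger and chromatin genes gave 3 higher and 0 lower in each line, of 10 and 9 tested. Of 12 developmental transcription factors, 2 were higher and 1 lower of 11 tested in A549, and 4 were higher and 1 lower of 9 in SUM159. The 5 kinase and signalling genes gave 2 higher in each line, the 5 small GTPase genes 1 higher and 1 lower in A549 and 1 higher and 2 lower in SUM159, and the 6 glycan enzyme genes 1 higher and 2 lower in A549 and 1 and 1 in SUM159. With 4 to 6 genes tested in each of the last 3 lists, no share is read from these counts. Of the 93 remaining genes, 33 were higher and 4 lower of 90 tested in A549, and 27 higher and 14 lower of 86 in SUM159.

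The response differed between the lines for a minority of the genes. In a fit of all 16 libraries, the response to indisulam was called more positive in SUM159 than in A549 for 6 of 194 (3.09%, against 8.04% of 17764 genes) and more negative for 22 (11.3%, against 6.97%). The sign is that of the SUM159 log2 change minus the A549 log2 change, so a deeper fall in SUM159 counts as more negative. For palbociclib the counts were 6 (3.09%, against 9.65%) and 16 (8.25%, against 3.15%). For the combination they were 15 (7.73%, against 19.1%) and 32 (16.5%, against 11.8%). These counts moved with single libraries. With indisulam the share called more negative was 6.19% without the second untreated SUM159 library, 6.70% without the second untreated A549 library and 7.22% without the second indisulam library of SUM159, and the share called more positive was 1.55% to 2.58% over the 8 libraries left out in turn. With the combination the share called more negative was 8.76% without the first combination library of SUM159, and 27.8% and 24.7% without the second combination library and the first untreated library of A549. The share called more positive was then 4.12% to 4.64% without the second combination library or either untreated library of A549. With palbociclib the share called more negative was 12.4% to 21.1% without any 1 of the 4 A549 libraries, and that called more positive was 0.515% to 3.09% over all 8. JUN differed by -0.66 with indisulam and by -0.82 with the combination (edgeR adjusted p = 0.00167 and 4.2e-05). Here DESeq2 size factors gave 3 and 29 for palbociclib, and a filter of at least 10 counts in every library gave 2 and 33 of 151 genes. In untreated cells, 74 of 194 genes were called higher in SUM159 (38.1%, against 38.3% of all genes) and 84 lower (43.3%, against 38.0%). These levels differ between a lung and a breast cancer line, and line and tissue cannot be told apart.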

How the data were processed

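RNA was measured by poly(A) sequencing in 16 libraries, 2 for each of 8 groups of cell line and treatment. The authors deposited unnormalised read counts for Ensembl gene identifiers, made with HISAT2 2.2.1, HTSeq and GRCh38 per the labels. Per the study's methods the libraries were stranded and reads were trimmed with SeqPurge. The strand setting and the annotation release used for counting are not given in the sources used here, so overlapping genes are uncertain. Each file ends with reads in no feature, ambiguous between features or without a unique alignment, which were kept out of library sizes and tests and made up 3.89% to 6.78%, 4.38% to 5.62% and 4.25% to 5.25% of reads, relative to gene counts plus these reads. Floors cover counting error alone, as PCR copies of a molecule are counted separately.

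Of 58676 identifiers, 58207 were matched to GENCODE release 44, which gave symbols, exons, lengths and coordinates. Genes were tested with edgeR 4.0.16 in R 4.3.3 (filterByExpr, TMM scaling, glmQLFit and glmQLFTest, Benjamini-Hochberg adjustment, threshold 0.05), with the 8 libraries of a line fitted together and all 16 for differences between lines. The filter left 15744 genes in A549, 16080 in SUM159 and 17764 in both. CPM values use TMM-scaled library sizes. The intronless list was described by counts and medians, with no test of the list. The procedure was run on simulated counts whose spread was taken from these duplicates, so that run cannot speak for independent cultures.

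The members, gene lists and alternatives were chosen with earlier results of these data known. Named genes were a fixed list of AP-1, C/EBP, GTPase and RNA-processing genes. For each comparison the 3 largest increases and 3 largest decreases were added, among genes called whose mean in the line reached 5 CPM and 1 direction in both same-numbered pairs, and for indisulam the up to 5 in each direction called in both lines. Of the fixed list, 3 symbols (IER2, ARF6, RBMXL1) had more than 1 exon and were not used. In the lists by role, THBD, FZD2, KBTBD7, HNRNPA0, NRARP and the protocadherin beta genes were named outside these rules, with the results of these data known. Alternatives were DESeq2 1.42.0, its size factors, total-count scaling, other filters, other definitions of the list, leaving out each library, the replicate number as a block, and, added after seeing the data, bands of GC content and a limit on the untreated level. The labels only number the libraries of each group, and the paper calls them technical duplicates. Neither states whether same-numbered libraries shared a batch.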

Additional observations from a re-analysis of the deposited data

Results flagged for a closer look

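The response to a drug differed between the lines, by the edgeR interaction test at an adjusted p under 0.05, in the following named genes. Values are the log2 response in SUM159 minus that in A549, from the fit of all 16 libraries.

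With indisulam the difference was -0.66 for JUN, which rose in A549 and fell in SUM159, -0.25 for IER5, 0.46 for CEBPB, -0.29 for PURB, -0.32 for EPM2AIP1, 0.55 for EPOP and -0.34 for SFN. With palbociclib it was 0.47 for RNF26, 0.34 for EPM2AIP1, -0.45 for RRS1, -0.27 for SFN and -0.32 for RBM15B.

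With the combination it was -0.82 for JUN, 0.69 for JUNB, 0.56 for JUND, -0.22 for IER5, 0.64 for CEBPB and 0.69 for CEBPD. It was also -0.39 for PURB, -0.72 for KTI12, -0.28 for CSTF2T, 0.60 for HASPIN, 0.42 for RNF26, 0.52 for EPOP, 1.09 for LPAR6, -0.46 for RRS1, -0.55 for SFN, -0.28 for RBM15B and -0.23 for MGAT2. JUN, JUND, PURB and CSTF2T were called in opposite directions in the 2 lines with the combination. Of these calls, that of CSTF2T was lost with DESeq2 in A549 (adjusted p = 0.0894) and with total-count scaling in SUM159 (edgeR adjusted p = 0.549).

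Reads in no annotated feature, which no comparison above uses, had a higher share than in either untreated library of the line. The lower of the 2 libraries had 5.70% with indisulam and 4.83% with the combination in A549, and 4.96% with palbociclib, 5.70% with indisulam and 5.94% with the combination in SUM159. The part of these reads in the results was not tested.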

How the results depend on the processing

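Within the alternatives tried, 259 percentages of called genes and 65 differences of medians stayed within 1.5 times or within the spread between duplicates of the value reported. Of the other percentages, 40 were smaller and 15 larger by more than 1.5 times, and 6 fell to 0. The other 25 differences of medians moved by more than that spread. DESeq2's Wald test called fewer genes, with 12.3% higher and 9.09% lower for palbociclib in A549 and 20.3% and 10.7% for indisulam in SUM159, where total-count scaling gave 9.04% lower. Restriction to genes of at least 5 CPM moved the difference of medians to 0.12 (A549 indisulam), -0.15 (SUM159 palbociclib), 0.0755 (SUM159 indisulam) and -0.0518 (SUM159 combination). Genes without any spliced transcript gave 0.13 for indisulam in A549, and -0.183 and -0.0585 for palbociclib and the combination in SUM159. Length bands gave 0.067 and 0.13 for palbociclib and indisulam in A549, and -0.0655, 0.19 and 0.15 for palbociclib, indisulam and the combination in SUM159. GC bands gave 0.0564 for palbociclib in A549, and -0.0563, 0.17 and 0.10 in SUM159 in the same order.

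The few calls of a departure from the sum were unstable. In A549 the share was 1.70% with at least 10 counts in every library, 2.60% with no filter and 1.63% for genes of at least 5 CPM, and in SUM159 6.06% with at least 10 counts. For the response to palbociclib in SUM159 against A549, the share called higher was 1.32% with at least 10 counts, 1.55% with DESeq2 size factors and 2.06% with total counts, and the share called lower was 21.9% and 14.9% with the first 2. For the combination the share called lower was 33.8% with at least 10 counts. The cause was not tested.

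Leaving out 1 library at a time gave 12.8% to 18.2% higher for palbociclib in A549, 10.1% to 17.4% higher for palbociclib in SUM159 and 9.55% to 11.2% lower for indisulam in SUM159. The differences of medians were then -0.0443 to 0.0477 (A549 palbociclib), 0.17 to 0.25 (A549 combination), -0.16 to -0.14 (SUM159 palbociclib), 0.088 to 0.14 (SUM159 indisulam) and -0.0188 to -0.00301 (SUM159 combination). Departures ran from 0% to 4.28% in A549 and 0% to 7.30% in SUM159. Between the lines, palbociclib gave 0.515% to 3.09% higher and 5.67% to 21.1% lower, indisulam 1.55% to 2.58% and 6.19% to 9.28%, and the combination 4.12% to 8.25% and 8.76% to 27.8%. The library that moved palbociclib in A549 most was its second palbociclib library, and in SUM159 the second untreated library.

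The replicate number as a block moved the share of departures in SUM159 to 1.69% and lost the calls of PURA with indisulam and FUT4 with the combination in SUM159. It changed no other count by over 1.5 times. Correlations of the deviations of same-numbered libraries lay between -0.08 and 0.11, and the numbers were not taken to pair the libraries.

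Of the named genes' values under an alternative, 648 kept direction and side of the threshold, 40 lost and 2 gained the call. In 12, none called in the fit reported, the sign changed. Total counts gave 0.0177 for CEBPB, 0.00824 for FZD1 and 0.0055 for MOCS3 with the combination in A549, 0.0377 for RHOB and 0.0575 for FUT4 with palbociclib in A549, 0.00935 for FZD1 with indisulam in A549, 0.0483 for CSTF2T and 0.00577 for TSPYL1 with indisulam in SUM159, and 0.0397 for CREBZF with palbociclib in SUM159. DESeq2 gave -0.00437 for JUN with palbociclib in A549 and -0.0154 for RNF26 with indisulam in SUM159, and the block gave -0.000127 for OR2W3 with palbociclib in SUM159. With 2 technical duplicates a group, genes near the limit of 1 CPM rest on few counts.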
